A study of Mus musculus with 4 samples.

Results

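AP-1, ATF and BATF factors are transcription factors of the basic leucine zipper (bZIP) type, and 10 of their genes were examined in leukaemic mouse spleen cells treated with R848. The members, matched by symbol, were Fos, Fosb and Fosl2, then Jun, Junb and Jund, then Atf3, and then Batf, Batf2 and Batf3. All 10 were found among 28074 symbols, and 9 of them, all but Fosb, reached the mean of 1 FPKM (fragments scaled for gene length and sequencing depth) needed for testing, which 12612 genes reached in all. Batf2 reached it through the R848 samples alone, since its control mean was 0.826 FPKM.

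The cells came from 2 mice, numbered 4050 and 4182, with acute myeloid leukaemia, and RNA was sequenced after 3 days in culture with vehicle (control, n = 2) or with R848 at 10 µg/ml (n = 2). Both mice, and so both groups, carried floxed Dnmt3a alleles (Dnmt3afl/fl), the internal tandem duplication of Flt3 (Flt3ITD/ITD) and Mx1Cre, a recombinase under the interferon-responsive Mx1 promoter. The labels also write the genotype as Dnmt3a+/-, and the conflict was not resolved here. No source used here gives ages. The cells had been freed of red blood cells by lysis, and no sort is described. They had been frozen, thawed and kept for 24 hours in 20% serum with SCF (60 ng/ml), IL6 and IL3 (20 ng/ml each). R848, or resiquimod, is an agonist of the endosomal receptors TLR7 and TLR8, and the series set out to identify its effects on expression in these cells. The depth behind each value is unknown, because the table holds no counts.

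AP-1 is a dimer that binds short DNA elements in the control regions of inflammatory, growth and matrix genes. FOS proteins bind DNA as partners of JUN proteins, JUN proteins also pair among themselves, and ATF3 pairs with JUN and is known as a brake on inflammatory genes in macrophages stimulated through Toll-like receptors. BATF proteins lack a transactivation domain, pair with JUN proteins and recruit interferon regulatory factors. Toll-like receptors reach AP-1 through MAP kinases, and Fos, Jun and Junb are immediate early genes, whose mRNA is known to rise and fall soon after a stimulus.

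Promoters of the members were compared first, because ATF and CREB factors bind elements built on TGACGT. Of the 10 members 9 had an entry among the RefSeq promoters of GRCm38, and Batf2 had none. In the 250 bases before the start, on either strand, TGACGT was found in 3 of the 9 (Fos, Atf3 and Batf) and in 6.47% of 32851 such windows over all genes. These 3 are printed 5′ to 3′ on the gene's strand with the match in capitals. The windows were chr12:85473640-85473889 on the plus strand for Fos, chr1:191183334-191183583 on the minus strand for Atf3, and chr12:85686470-85686668 on the plus strand for Batf, whose last 51 bases lie in an annotated exon and were left off. The RefSeq start of Atf3 lies inside the GENCODE M21 gene, which begins further upstream. In the Atf3 window 7 bases lie in an annotated exon and were kept, and whether the match falls among them was not recorded.
Fos: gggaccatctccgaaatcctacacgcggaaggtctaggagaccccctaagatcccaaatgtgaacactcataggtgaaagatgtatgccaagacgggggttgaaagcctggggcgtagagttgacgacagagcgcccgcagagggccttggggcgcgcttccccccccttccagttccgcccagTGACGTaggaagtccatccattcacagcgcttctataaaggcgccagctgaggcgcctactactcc
Atf3: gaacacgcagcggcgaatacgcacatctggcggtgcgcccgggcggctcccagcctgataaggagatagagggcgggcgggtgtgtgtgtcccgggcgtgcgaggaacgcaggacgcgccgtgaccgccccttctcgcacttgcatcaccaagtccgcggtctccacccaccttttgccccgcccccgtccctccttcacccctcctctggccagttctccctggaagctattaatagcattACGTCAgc
Batf: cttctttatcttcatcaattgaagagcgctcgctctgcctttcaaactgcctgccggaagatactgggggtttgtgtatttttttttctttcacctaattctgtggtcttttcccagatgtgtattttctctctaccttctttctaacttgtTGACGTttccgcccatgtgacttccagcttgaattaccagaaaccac
The match lies 66 to 61 bases before the start in Fos, 98 to 93 bases before it in Batf, and 8 to 3 bases before it in Atf3, where it reads ACGTCA because it is on the other strand. The full element TGACGTCA, which contains TGACGT, was in 0 of the 9 windows and in 1.55% of all windows, and the AP-1 element TGANTCA was in 0 and in 6.75%. The interferon response core (GAAA repeated after 2 bases) was found in Fosl2 (2.98% of all windows) and the palindrome TTCNNNGAA in Batf3 (7.02%). Of the 9 promoters 5 held at least 1 of the 5 motifs, and Fosb, Jun, Junb and Jund held none. The share of all windows with at least 1 of the motifs was not computed, so 5 of 9 has no background here. A match is a description of letters. Fos, Atf3 and Batf were not called by limma in the fit across all genes that follows, and a link between a match and R848 was not tested.

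Batf2 rose with R848, and the other 8 tested members did not pass the test. By limma with Benjamini-Hochberg adjustment over 12612 genes, 1 of 9 tested members was called higher, where 1.47% of all tested genes were, and 0 were called lower, where 0.381% were (1.85% in either direction). Batf2 entered the tested set through its R848 samples alone (control mean 0.826 FPKM), so the count of 1 of 9 is no support for its call. With the mouse as a block the members gave the same counts, 1 higher and 0 lower, against 3.40% and 1.90% of tested genes (5.30% in either direction). At an unadjusted p under 0.05 there were 2 of 9 members, Batf2 and Atf3, both higher, where 5.20% of tested genes were higher and 6.33% lower (11.5% in either direction). These shares are also the background for the counts before adjustment that follow. The shares of adjusted calls, without and with the block, are the background for the counts of calls that follow. In 4 of the 10 members the samples of the groups did not overlap, with Batf2, Atf3 and Batf higher and Jun lower with R848. Such separation was common, at 13.5% of tested genes with R848 above and 28.8% with R848 below, so 4 of 10 is near the 42.2% of all tested genes. Without the block, the p-values rest on the spread between cultures of 2 mice, drawn toward that of genes of like level. That fit had 5.27 prior and 2 residual degrees of freedom. With the block they rest on how far the response differed between the mice, drawn in the same way. The fit with the block had 11.3 prior and 1 residual degrees of freedom, so its small p-values rest mostly on the spread of genes of like level. Lower RNA per cell and fewer cells of a type cannot be told apart in these bulk samples.

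**Figure D1:**
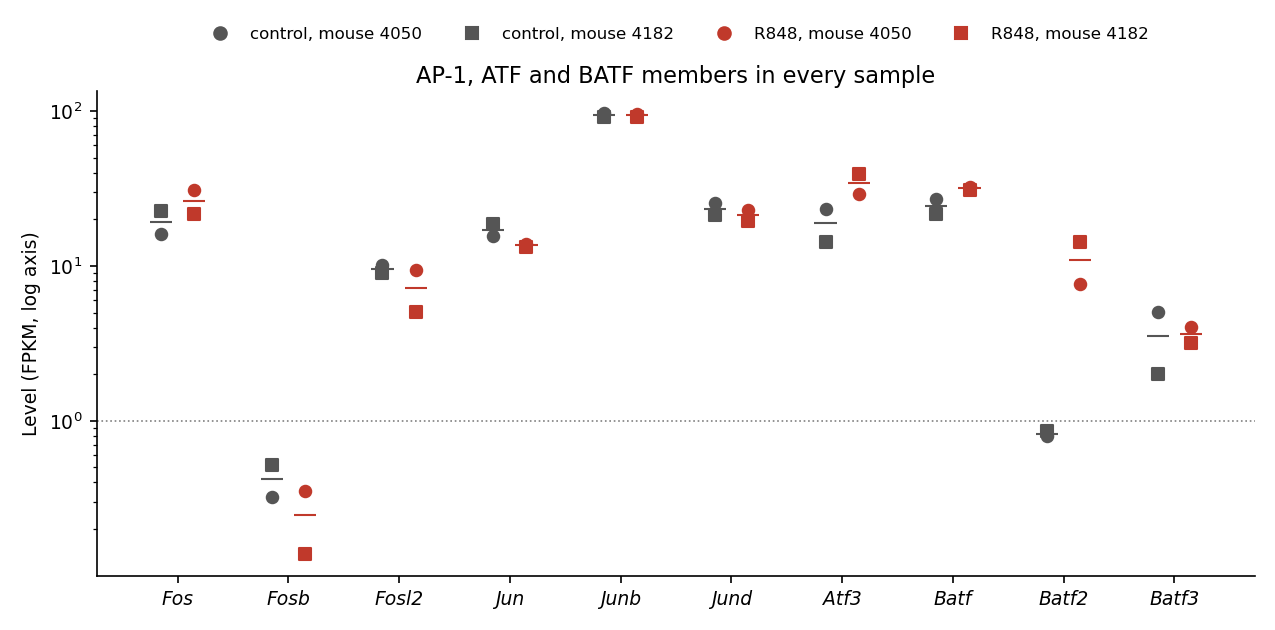
Level of each member in FPKM on a log axis, with control samples in grey and R848 samples in red, circles for mouse 4050, squares for mouse 4182 and a short line at each group's mean (n = 2). Batf2 lies under the dotted line at 1 FPKM in both controls and at 7.65 and 14.2 with R848, while Junb stays between 91.4 and 97.2 in every sample.

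Batf2, which pairs with JUN proteins and with interferon regulatory factors in activated macrophages, was at 0.794 FPKM in the control of mouse 4050 and at 0.858 in that of mouse 4182. With R848 it was at 7.65 and 14.2 FPKM. Both R848 samples thus lay far above both controls, by 9.64-fold in mouse 4050 and by 16.6-fold in mouse 4182. On the log2(FPKM + 1) scale, which understates the change of a gene this low, the difference was 2.65 (SE 0.30, 95% interval 1.95 to 3.35, limma adjusted p = 0.00769). That is a greater difference than in 99.5% of tested genes, with 60 genes above it. The control mean was 0.826 ± 0.0456 FPKM and the R848 mean 10.9 ± 4.65 (SD, n = 2 each). The call ended after quantile normalization (limma adjusted p = 0.0554), with no filter on low genes (0.217), where 0 genes of any kind were called, and without the R848 sample of mouse 4182 (0.0683, log2 difference 2.24). With the mouse as a block limma adjusted p was 3.7e-05, and the block kept the call together with either rescaling (0.00146 with median log ratio scaling and 0.00237 with quantile normalization).

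Batf2 (GRCm38 chromosome 19, 6140983 to 6172476, plus strand) has 3 exons in each of its 2 coding transcripts in GENCODE M21 and overlaps Arl2, a protein-coding gene on the minus strand. Whether strand was used in counting was not given in the sources used here. Arl2 itself was at 19.6 and 21.3 FPKM in the controls and at 21.7 and 21.5 with R848, a log2 difference of 0.08 (95% interval -0.31 to 0.47, limma adjusted p = 0.911).

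Klra2 and Zbp1 were among the genes whose pattern over the 4 samples was most like that of Batf2. Likeness was the root mean square difference of log2(FPKM + 1) after each gene's mean was taken off, and it was 0.0866 for Klra2 and 0.156 for Zbp1. Klra2, a lectin-like receptor of the Ly49 family, was at 6.08 and 6.60 FPKM in the controls and at 34.5 and 52.9 with R848. Zbp1, a nucleic acid sensor, went from 12.0 and 11.2 FPKM to 48.2 and 83.4. In both genes, as in Batf2, the R848 sample of mouse 4182 was the highest. These genes were picked for likeness, so their direction is no further evidence.

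Batf, which pairs with JUN and with IRF4 or IRF8 in lymphocytes and dendritic cells, was the most abundant BATF gene. Its controls were at 27.0 FPKM in mouse 4050 and 21.6 in mouse 4182, and its R848 samples at 32.3 and 31.1. The R848 samples were both above the controls, and the log2 difference was 0.38 (95% interval -0.04 to 0.80, limma adjusted p = 0.497). Batf3, known as a factor that type 1 dendritic cells depend on, was at 5.02 and 2.00 FPKM in the controls and at 4.03 and 3.20 with R848. Its R848 samples lay between the controls, and the mice differed in sign, at -0.26 in mouse 4050 and 0.49 in mouse 4182 on the log2 scale. The interval of the difference, -0.69 to 0.92 around 0.11, leaves room for changes of either direction (limma adjusted p = 0.945).

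Within the BATF group the share of Batf2 was higher with R848 in both mice. The 3 BATF genes summed to 32.8 and 24.4 FPKM in the controls of mice 4050 and 4182 and to 43.9 and 48.5 with R848, a ratio of 1.34 and 1.99. Batf2 was 2.42% and 3.51% of the sum in the controls and 17.4% and 29.3% with R848, while Batf went from 82.3% and 88.3% to 73.4% and 64.1%. Batf2 lay below Batf3 in both controls and above Batf3 in both R848 samples. Sums and shares are given with no test, and the smallest two-sided p that an exact permutation of 2 against 2 samples allows is 0.333.

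**Figure D2:**
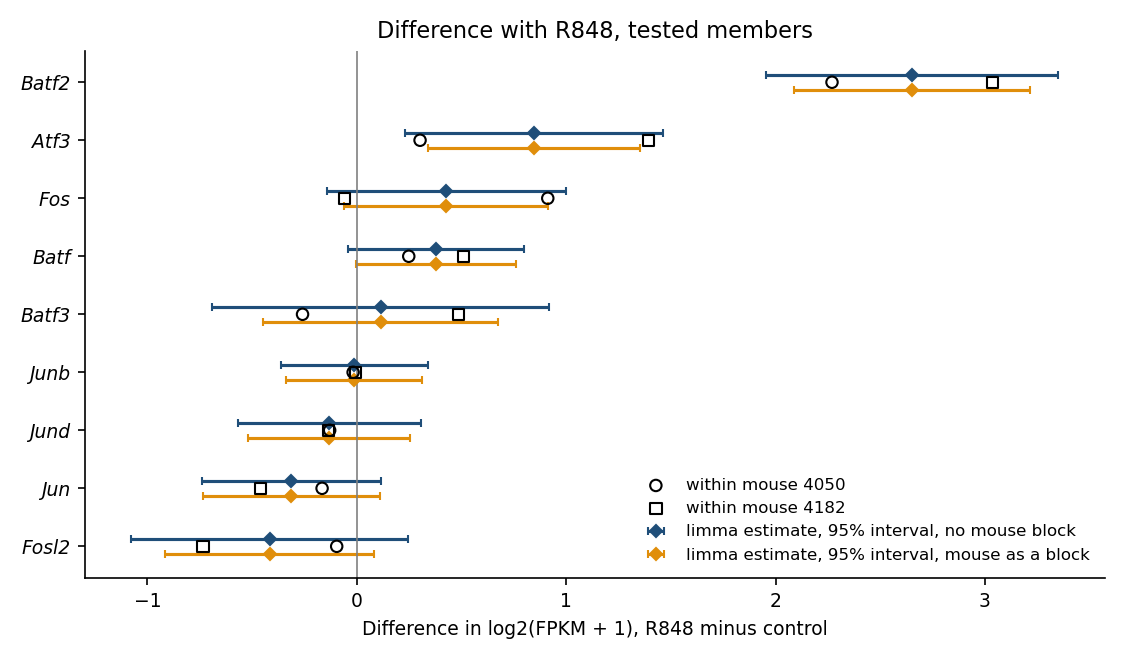
Difference of R848 minus control in log2(FPKM + 1) for the 9 tested members, as the limma estimate with its 95% interval without (blue) and with (orange) the mouse as a block, and within each mouse (open circles and squares). The Batf2 interval runs from 1.95 to 3.35, the Atf3 estimate is 0.85, and the Junb points lie at -0.02 and -0.01 in mice 4050 and 4182.

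Atf3, the stress-induced ATF, had the next highest difference and did not pass. It was at 23.3 FPKM in the control of mouse 4050 and 14.3 in that of mouse 4182, and at 28.9 and 39.2 with R848. Both R848 samples were above both controls, and above their own control by 1.24-fold in mouse 4050 and 2.74-fold in mouse 4182. The log2 difference was 0.85 (SE 0.26, 95% interval 0.23 to 1.46, unadjusted p = 0.0138, limma adjusted p = 0.238). It stayed above the threshold with the mouse as a block (limma adjusted p = 0.0585) and passed without the control sample of mouse 4050 (1.18, limma adjusted p = 0.0326). Atf3 (chromosome 1, 191170296 to 191218039, minus strand) lies 61 kb from Batf3, whose values are given above.

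Among the FOS genes, Fos had the highest level and mice that differed. Fos, the partner of JUN in the classical AP-1 dimer, was at 16.1 and 22.5 FPKM in the controls of mice 4050 and 4182 and at 31.1 and 21.6 with R848. In mouse 4050 it was 1.94-fold higher with R848 and in mouse 4182 it was at 0.958 of its control, so the groups overlap. The log2 difference was 0.43 (95% interval -0.14 to 1.00, limma adjusted p = 0.581). Fosl2, which encodes the FOS-related protein FRA2, was at 10.2 and 9.02 FPKM in the controls and at 9.45 and 5.02 with R848. The R848 sample of mouse 4182 was low and that of mouse 4050 lay between the controls, for a log2 difference of -0.42 (95% interval -1.08 to 0.25, limma adjusted p = 0.656). Without the R848 sample of mouse 4182 it was -0.02. Fosb was not tested and had the lowest level of the members, at 0.322 and 0.520 FPKM in the controls and 0.354 and 0.139 with R848.

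Fosl2 had the lowest difference among tested members, and the genes with the most similar pattern were Hmgb3, Krt80 and Dock8 (root mean square differences of 0.00879, 0.0363 and 0.0409 over the 4 samples). Dock8, a regulator of leukocyte migration, was at 37.9, 36.4 and 35.3 FPKM in both controls and the R848 sample of mouse 4050, and at 20.5 in the R848 sample of mouse 4182. Hmgb3, a chromatin protein, and Krt80, a keratin, had log2 differences of -0.42 and -0.38, and for Krt80 the sign was not kept without the R848 sample of mouse 4182 (0.00085). Likeness to Fosl2 thus rests on 1 low sample.

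The summed FOS level was 26.6 and 32.1 FPKM in the controls and 40.9 and 26.8 with R848, a ratio of 1.54 in mouse 4050 and 0.834 in mouse 4182. The share of Fos was higher with R848 in both mice, at 60.5% against 76.1% in mouse 4050 and 70.3% against 80.7% in mouse 4182. The share of Fosl2 was lower with R848 in both mice, at 38.3% against 23.1% and 28.1% against 18.7%.

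The JUN genes showed small differences. Junb, a JUN protein with weaker activating function than JUN itself, was the most abundant member in every sample, at 97.2 and 91.8 FPKM in the controls and 96.0 and 91.4 with R848. Within each mouse the R848 sample was within a few percent of its control, at ratios of 0.988 and 0.995. The log2 difference was -0.01 (95% interval -0.36 to 0.34, limma adjusted p = 0.988), which leaves out changes of 1 or more on the log2 scale, and its sign turned to 0.06 after median log ratio scaling. Jund, a JUN protein found in many resting cells, was at 25.3 and 21.3 FPKM in the controls and 23.1 and 19.4 with R848. Each R848 sample was lower than its own control by about the same ratio, 0.911 and 0.907, but the groups overlap because the mice differ (log2 difference -0.13, 95% interval -0.57 to 0.30, limma adjusted p = 0.855).

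Jun, the activating partner of FOS, was at 15.7 and 18.6 FPKM in the controls and at 13.8 and 13.3 with R848. Both R848 samples were below both controls, and the log2 difference was -0.31 (95% interval -0.74 to 0.11, limma adjusted p = 0.589). The JUN sum was 138 and 132 FPKM in the controls and 133 and 124 with R848. Junb made up 69.7% to 73.7% of it in every sample, and Jun 11.3% and 14.1% in the controls against 10.4% and 10.7% with R848. Jun, Junb and Jund each have 1 exon in GENCODE M21, and each overlaps a gene on the other strand. For Junb that is Prdx2, at 0.17 (95% interval -0.18 to 0.53), and for Jund it is Gm11175, at -0.18 (-0.84 to 0.47), both as log2 differences. For Jun it is the antisense transcript Junos.

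**Figure D3:**
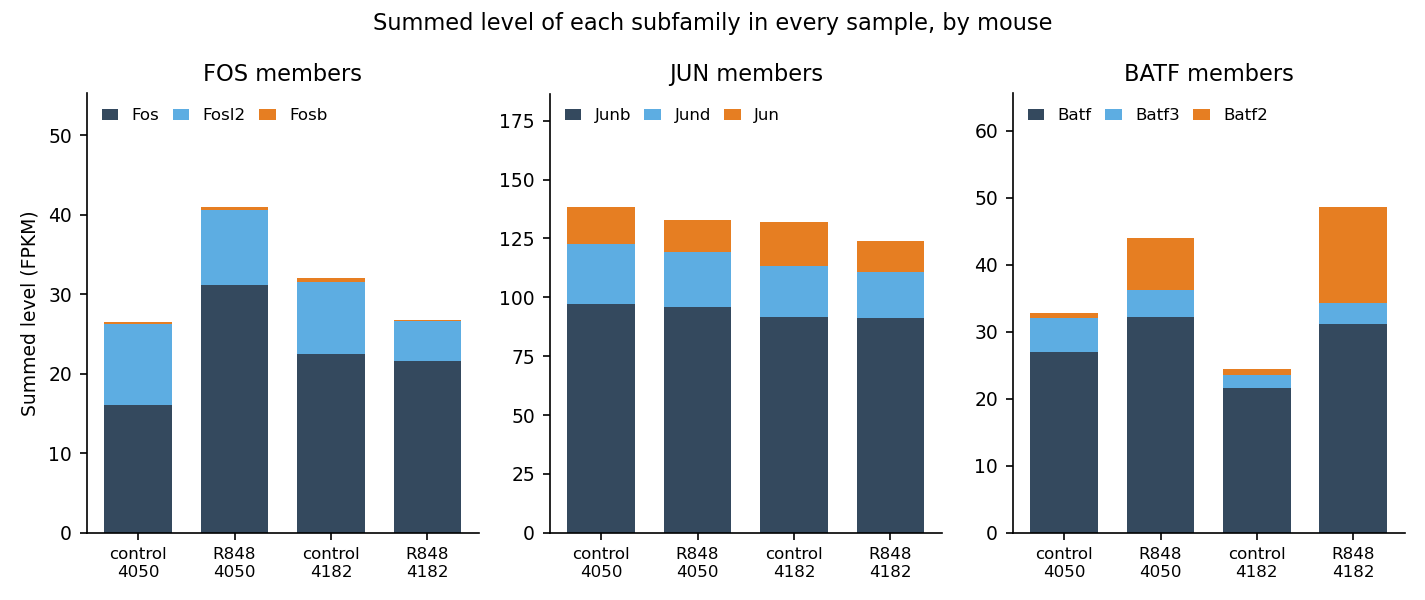
Summed FPKM of the FOS, JUN and BATF members in each sample, ordered by mouse, with each member's part in its own colour. The JUN bars stay between 124 and 138 FPKM, the FOS bars go up in mouse 4050 and down in mouse 4182, and the BATF bars are higher with R848 in both mice.

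In order of mean level per length, the controls ran Junb, Batf, Jund, Fos, Atf3, Jun, Fosl2, Batf3, Batf2 and Fosb. Between Batf and Jun neighbours had overlapping sample values, whereas Junb, Jun, Fosl2, Batf3 and Batf2 each stood apart from the next. With R848 the order was Junb, Atf3, Batf, Fos, Jund, Jun, Batf2, Fosl2, Batf3 and Fosb. There Atf3, Batf, Fos and Jund overlapped in turn, as did Jun with Batf2 and Batf2 with Fosl2. Atf3 went from the fifth place to the second and Batf2 from the ninth to the seventh. Over all 10 members the sum was 221 and 203 FPKM in the controls and 247 and 239 with R848.

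The members also share positions. Fos and Batf lie 209 kb apart on chromosome 12 (85473890 to 85477273 and 85686669 to 85709087, both on the plus strand), with Jdp2 between them. Jdp2, a bZIP repressor of AP-1 named here for its position, was at 56.0 and 60.6 FPKM in the controls and 59.4 and 53.5 with R848. Its groups overlap (log2 difference -0.05, limma adjusted p = 0.953, and 0.03 after median log ratio scaling). Fosl1, the FOS gene that is not among the members, was at 2.20 and 1.92 FPKM in the controls and 2.30 and 1.83 with R848, a log2 difference of 0.00 (limma adjusted p = 1.0).

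Of 32 tested other bZIP factors, Maf rose and 0 fell, and before adjustment 1 was higher and 3 were lower (limma p under 0.05). Maf, a macrophage transcription factor, went from 2.16 and 3.08 FPKM to 8.33 and 10.3 (log2 difference 1.51, limma adjusted p = 0.0231), a call that ended after either rescaling (0.0739 and 0.0698) and without either R848 sample (0.103 and 0.241). With the mouse as a block the limma adjusted p of Maf was 0.0011. In the MAP kinase relay that activates AP-1, 0 of 33 passed by limma. Before adjustment 1 was higher and 4 were lower there, against 11.5% of all tested genes in either direction. Map3k1, a kinase upstream of JNK, was at 28.0 and 34.6 FPKM in the controls and 19.8 and 18.9 with R848 (log2 difference -0.66, limma adjusted p = 0.176). Map3k14, the NF-kB-inducing kinase, was at -0.70 (limma adjusted p = 0.238). The median log2 difference was -0.14 for the other bZIP factors and -0.18 for the relay, against -0.08 over all tested genes.

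Brakes and immediate early genes each had 1 call. Of all tested genes 1.47% were called higher and 0.381% lower by limma, and 3.40% and 1.90% with the mouse as a block. Among 21 tested brakes on MAP kinases and AP-1, Dusp16, a phosphatase that acts on JNK, rose from 1.99 and 1.75 FPKM to 10.3 and 5.99 (log2 difference 1.63, limma adjusted p = 0.034). That call ended after either rescaling (0.0666 and 0.0553) and without either R848 sample (0.165 and 0.0771), and the mouse block gave 2 risers. Among 18 other immediate early genes and their regulators, Klf4, a zinc finger factor of monocytes, fell from 5.90 and 6.51 FPKM to 1.03 and 0.886 (log2 difference -1.88, limma adjusted p = 0.00885). It lost the call without either R848 sample (log2 differences -1.93 and -1.83), and the mouse block gave 3 fallers, Klf4, Egr2 and Klf10. Egr2, named after its values were seen, was at 11.9 and 3.92 FPKM in the controls and 0.843 and 0.806 with R848. Its log2 difference was -2.12 (limma adjusted p = 0.0626 without the block and 0.000889 with it). With the block the limma adjusted p was 0.00118 for Dusp16 and 0.000363 for Klf4. The medians were -0.16 for the brakes and -0.35 for the immediate early genes.

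Partners of BATF factors gave 0 calls among 10 tested genes by limma. Before adjustment 1 was higher and 2 were lower, and the median log2 difference was -0.24. Irf4, a partner of BATF, was at 9.73 and 8.90 FPKM in the controls and 6.32 and 4.39 with R848 (log2 difference -0.71, limma adjusted p = 0.239), and Prdm1, a repressor in plasma cells, was at 0.86 (0.214). Irf1, known as a partner of BATF2 in macrophages and named here after its values were seen, rose from 58.9 and 57.7 FPKM to 216 and 285 (log2 difference 2.07, limma adjusted p = 0.00351). Its R848 samples were both above the controls, with mouse 4182 the higher, as for Batf2.

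Textbook AP-1 targets went both ways. Of 24 tested, Il1b, Cxcl2 and Fth1 rose and Emp1, Spp1 and Mmp12 fell, and the mouse block gave 6 risers and 5 fallers. Over all tested genes 1.85% were called by limma in either direction, and 5.30% with the block. Il1b, a cytokine, went from 28.1 and 7.87 FPKM to 219 and 156, and Spp1, osteopontin, from 735 and 462 to 92.4 and 65.7. The log2 differences were 3.53 for Il1b, 2.22 for the chemokine Cxcl2, -2.89 for Spp1 and -2.50 for the membrane protein Emp1 (limma adjusted p = 0.019, 0.0211, 0.00368 and 0.00306). Quantile normalization ended the calls of Il1b and Cxcl2 (0.086 and 0.0578), median log ratio scaling that of Il1b (0.0698), and both calls ended without either R848 sample. Spp1 lost its call without the R848 sample of mouse 4182 (0.056). Fth1 and Mmp12, named after their values were seen, were at 1.32 and -3.80 and lost their calls after either rescaling and without either R848 sample. With the mouse as a block the limma adjusted p was 1.21e-06 for Il1b, 3.28e-05 for Cxcl2 and 1.36e-07 for Spp1. It was 0.000715 for Fth1 and 1.23e-06 for Mmp12. The list's median was 0.13.

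Of 11 tested genes known to be held down or switched on by ATF3, 0 passed by limma. Before adjustment 1 was higher and 4 were lower, and the median was -0.35. Because the list mixes genes of both expected directions, its counts and median cannot speak to the activity of ATF3, which was not tested. Il6, a cytokine held down by ATF3, was at 38.0 and 35.6 FPKM in the controls and 25.9 and 14.2 with R848, and Trib3, a stress pseudokinase, was at 16.5 and 20.0 against 10.7 and 8.21. Their log2 differences were -0.90 and -0.89 (limma adjusted p = 0.221 and 0.106), and in the fit with the block both fell (0.0187 and 0.0282). That fit also gave 1 riser, the chemokine Cxcl1, named after its values were seen, at 0.540 and 0.0480 FPKM in the controls and 3.54 and 0.940 with R848 (log2 difference 1.22, limma adjusted p = 0.305 without the block and 0.0203 with it). The culture medium of both groups held IL6 protein.

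**Figure D4:**
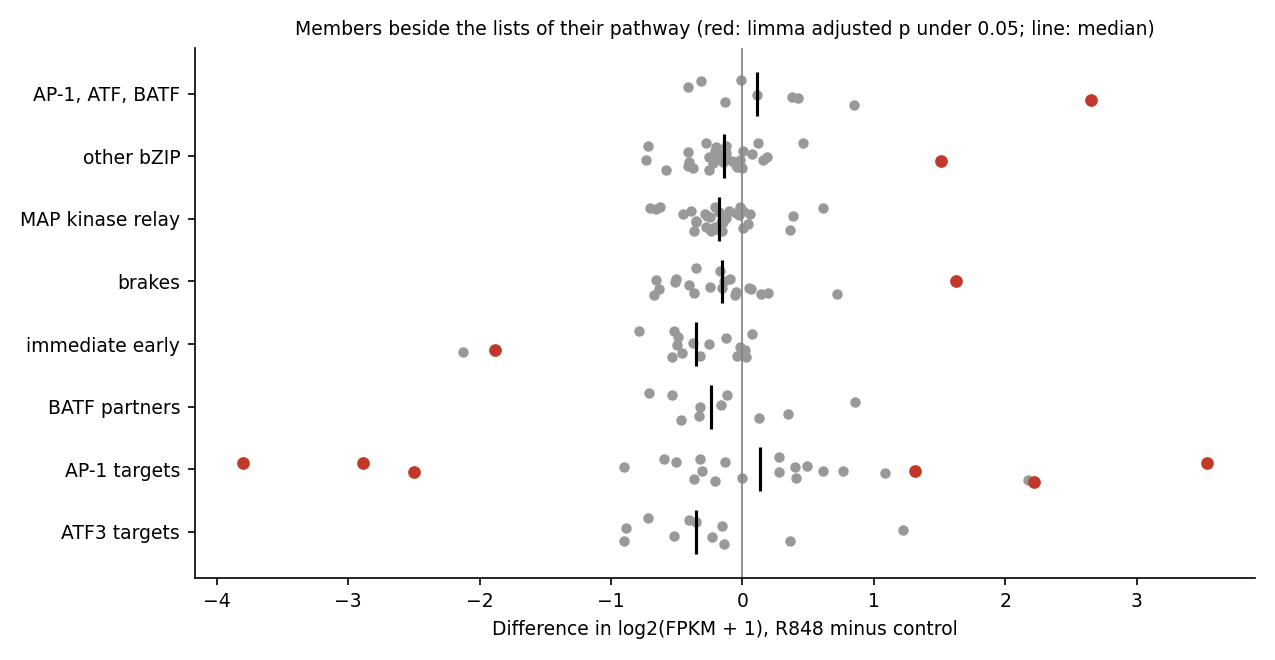
Difference of R848 minus control in log2(FPKM + 1) for each tested gene of the members and of 7 lists of their pathway, with genes at a limma adjusted p under 0.05 in red and each list's median as a line. Batf2 stands to the right of the other members at 2.65, the MAP kinase relay has 0 red points, and the AP-1 targets reach from -3.80 to 3.53.

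Markers of the labelled cells were present, and markers of other cells moved with R848. Of 14 myeloid markers 13 were found and tested and 0 called (before adjustment 2 were higher and 1 lower by limma), summing to 9232 and 7987 FPKM in the controls and 9963 and 8006 with R848. Mpo, myeloperoxidase, was between 1052 and 1533 FPKM. Ptprc, the pan-leukocyte antigen, was between 1.27 and 2.69 FPKM in the 4 samples. Fcgr3 and Cd34 had the lowest p, with log2 differences of 0.50 and -1.11, and with the block Cd34 fell (limma adjusted p = 0.00187). Csf1r, the receptor of the macrophage growth factor M-CSF, named after its values were seen, rose with the block (log2 difference 0.67, limma adjusted p = 0.241 without it and 0.0215 with it). Of 10 macrophage markers, in whose cells BATF2 is known to act, 5 rose (Marco and C1qc at 5.88 and 1.97) and Mrc1 fell (-2.96), with sums of 373 and 292 FPKM against 728 and 822. In the fit with the block 7 macrophage markers rose and 1 fell. For all tested genes the share called in either direction was 1.85% without the block and 5.30% with it. Without the R848 sample of mouse 4182, 1 macrophage marker rose and 0 fell, and after either rescaling Mrc1 lost its call.

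Plasma cell markers had 4 of 9 tested genes called higher (Igkc at 6.88 and Iglc2 at 4.88; sums of 547 and 697 against 1346 and 1176 FPKM). B cell markers had 3 of 5 (Ms4a1 and Cd79a at 2.52 and 1.77; 16.2 and 19.0 against 43.8 and 45.0), and T cell markers 2 of 6 (Cd3g and Trac at 1.74 and 1.64; 30.5 and 25.5 against 35.3 and 33.4). The block gave 4 risers each among plasma and B cell markers and 2 among T cell markers. Before adjustment 7 plasma cell markers were higher and 1, Irf4, was lower by limma, with 4 B cell and 2 T cell markers higher and 0 lower. Xbp1, which was not called, held most of the plasma cell sums of the controls, at 515 and 667 FPKM against 599 and 543 with R848. Leaving out either R848 sample left 0 B cell and 0 T cell calls, leaving out the control sample of mouse 4182 left 1 T cell call, and after either rescaling 0 T cell calls were left. Of 12 markers of type 1 dendritic cells, which need BATF3, 6 were tested and 0 called (before adjustment 1 was higher and 1 lower by limma), with sums of 176 and 253 against 143 and 163 FPKM. Xcr1 and Clec9a, which define them, were under 0.32 FPKM in every sample, and Naaa and Ifi205 were at -1.17 and 0.80, Naaa passing with the block (limma adjusted p = 0.000713). Most of the summed level of this list came from Wdfy4, Naaa and Irf8. NK cell (2 tested), mast cell and basophil (6) and erythroid (2) markers had 0 calls by limma, and before adjustment 0, 2 and 0 genes. Their sums were 24.4 and 58.0 against 46.8 and 43.8 FPKM for NK cells, 1428 and 1501 against 2039 and 1252 for mast cells and basophils, and 31.2 and 7.59 against 57.3 and 4.75 for erythroid cells. In these lists Klrd1 and Gzmb were at 0.26 and 0.21, Cpa3 and Fcer1a at 0.53 and 1.30, and Hbb-b1 and Hbb-b2 at -0.44 and 0.20, and Fcer1a passed with the block (0.0049). The part of these cells in the values of Batf2, Batf and Batf3 was not tested.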

How the data were processed

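RNA from 2 control and 2 R848 cultures was sequenced as paired 150-nucleotide reads, per the labels' protocols. These name both ribosomal depletion and a stranded mRNA kit, so the captured RNA is not settled. The authors used kallisto and mm10, per the submitters' processing notes, and their versions, annotation and strand setting are not given in the sources used here. Deposited log2 values are log2(FPKM + 1) by the authors' naming. Undone, they summed to between 948926 and 960471 per sample, as TPM would.

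Of 28192 rows, 27 with date names and 91 repeats were dropped. Testing required a mean of 1 FPKM or more and used limma 3.58.1 under R 4.3.3 (trended prior, 5.27 prior and 2 residual degrees of freedom, two-sided, Benjamini-Hochberg, threshold 0.05), after the code was tested on simulated data. Same-numbered samples come from 1 mouse, per the labels, and their deviations correlated at 0.289 across genes. The fit without the block, which leaves the pairing by mouse out, was taken as the result, and the paired fit is given as an alternative.

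Members, 16 further lists (1 of 256 listed genes not matched, 8 matched by older symbols) and named genes were chosen with earlier results of these data known. The rule names the members, the 2 risers and 2 fallers with the smallest adjusted p per list (or the 2 smallest p), and the 3 genes most like the highest and lowest member. A gene that it takes is not reported here. Coordinates are from GENCODE M21 on GRCm38 and promoters from RefSeq, GRCm38.p6. The alternatives were the block, a pseudocount of 0.1, no filter, a minimum of 5 FPKM, quantile and median log ratio scaling, no trend and leaving out each sample. The block with either rescaling was chosen after seeing the data. Figures used matplotlib 3.10.9.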

Additional observations from a re-analysis of the deposited data

How the results depend on the processing

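Over 13 alternatives (12 for Batf3), Batf2 kept its direction in each (log2 difference 2.24 to 3.51) and its call in 10, and the other tested members stayed uncalled in each, except Atf3 without the control sample of mouse 4050. The number of members called higher was 0 with no filter, 0 after quantile normalization and 0 to 2 when leaving out 1 sample, with 0 lower in each. Over all genes, the paired fit with the mouse as a replicate block called 429 higher and 240 lower, against 185 and 48 without it. With median log ratio scaling the block gave 404 and 145, and with quantile normalization 354 and 136. Without the block, quantile normalization gave 76 and 12, median log ratio scaling 91 and 15, and no filter 0 and 0 (limma gave 1880 genes below 0.05 before adjustment). Leaving out 1 sample gave 46 to 292 higher and 11 to 159 lower, the fewest without the R848 sample of mouse 4182 and the most without the control sample of mouse 4050, where the arm left with 1 sample is assumed to vary like the other. Signs near 0 turned. Junb went to 0.0622 after median log ratio scaling with or without the block (-0.0527 to 0.0286 when leaving out 1 sample). Fosl1 went to 0.0721 after quantile normalization and 0.0736 after median log ratio scaling, each with or without the block (-0.11 to 0.11), and Jdp2 to 0.0271 after median log ratio scaling with or without it (-0.12 to 0.0277). When leaving out 1 sample, Batf3 ranged from -0.39 to 0.62, Gzmb from -0.47 to 0.89, Gm11175 from -0.50 to 0.13, Krt80 from -0.75 to 0.00085 and Hbb-b2 from -2.50 to 2.90 (-0.23 with a pseudocount of 0.1). The log2 ratio of summed FPKM, averaged over the mice, went from -0.07 to 0.0041 for the JUN members and from 0.20 to 0.28 for all tested members after median log ratio scaling. Depth is unknown, which limits Fosb and the Batf2 controls most. The cause of these changes was not tested.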
